A study of Mus musculus with 2 samples.

Results

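The creatine and adenylate kinase energy shuttle was described here through 9 genes, chosen by name out of the 55536 annotated genes of the deposited tables. They are the creatine kinases Ckm, Ckb, Ckmt1 and Ckmt2, the creatine transporter Slc6a8, the creatine synthesis enzymes Gamt and Gatm, and the adenylate kinases Ak1 and Ak4. Each symbol matched 1 entry. The rule that picks them is a list of names and sets no threshold on a measured value, although the names were chosen with earlier results of these data known. Total RNA was sequenced from heart tissue of male adult mice aged 8 to 10 months, bred from 5xFAD and CAST, in 1 group of 2 libraries. 5xFAD mice carry human amyloid precursor protein and presenilin transgenes driven by a neuronal promoter, and the other parent strain, CAST, descends from wild mice. Transgene expression was not analysed here. The labels mark the libraries as biological replicates from separate tissue samples, yet 1 donor identifier is given for both, and their spread may therefore be technical. There was no other genotype, treatment or age to compare with.

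The heart stores little ATP and uses it quickly. Creatine kinases move its phosphate onto creatine at the mitochondria and back onto ADP at the myofibrils and ion pumps, so that phosphocreatine carries energy between these sites. Adenylate kinases turn a pair of ADP molecules into ATP and AMP, which recovers energy from ADP and gives the AMP that the energy sensor AMPK responds to. Cardiac muscle is known to take most of its creatine from blood through a transporter and to make little itself.

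Levels are given as TPM, an abundance divided by transcript length and scaled so that every library sums to the same total. Unless stated otherwise they come from the gene table, called the first quantification. A transcript table made by another method and summed per gene is called the second. The libraries held 39668202 and 36926511 expected counts on annotated genes. Cardiomyocyte genes were abundant, with all 6 markers detected and a summed level of 16870.3 and 16959 TPM in library 1 and library 2. Myh6, the myosin heavy chain of adult mouse heart, led them at 6765 ± 206 TPM, ahead of the troponins Tnnt2 and Tnni3 at 3600.3 ± 152 and 3379 ± 20.5 and of phospholamban, Pln, at 2301 ± 19.1. Skeletal muscle markers summed to 12.05 and 16.0 TPM. A level of 1 TPM in both libraries was reached by 48.8% of nuclear protein-coding genes and by 5 of the 8 skeletal muscle markers. These were Tnnt3 at 2.98 and 3.73 TPM, Mylpf at 2.46 and 4.23, Tnni2 at 2.34 and 2.84, the fast myosin Myh4 at 2.09 and 2.56, and Pvalb at 1.27 and 1.43. The other fast skeletal myosins, Myh1 and Myh2, were at 0.205 ± 0.0636 and 0.105 ± 0.00707 TPM (SD, n = 2), and Actn3 was also below 1 TPM. So were the Schwann cell markers Sox10 and, on average, S100b. No marker of any list was at 0.

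Of the 9 genes, 8 reached a level of 1 TPM in both libraries, and Ckmt1 did not. The same level was reached by 48.8% of nuclear protein-coding genes. The levels covered a wide range, from Ckm, which ranked 23 among 22015 nuclear protein-coding genes, to Ckmt1, which ranked 11471. Ckmt2 ranked 34, Ak1 195, Slc6a8 955, Ckb 2264, Ak4 3853, Gamt 6612 and Gatm 10510. Ckm, Ckmt2 and Ak1 together held 96.2% ± 0.239 of the summed TPM of the 9 genes. The 9 genes held 0.718% ± 0.0109 of the TPM of all nuclear protein-coding genes. In the order of mean TPM, the values of the 2 libraries did not overlap between any pair of neighbours, in either quantification. The order of the leading pair nevertheless turned on which transcripts were counted, as described below.

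**Figure D1:**
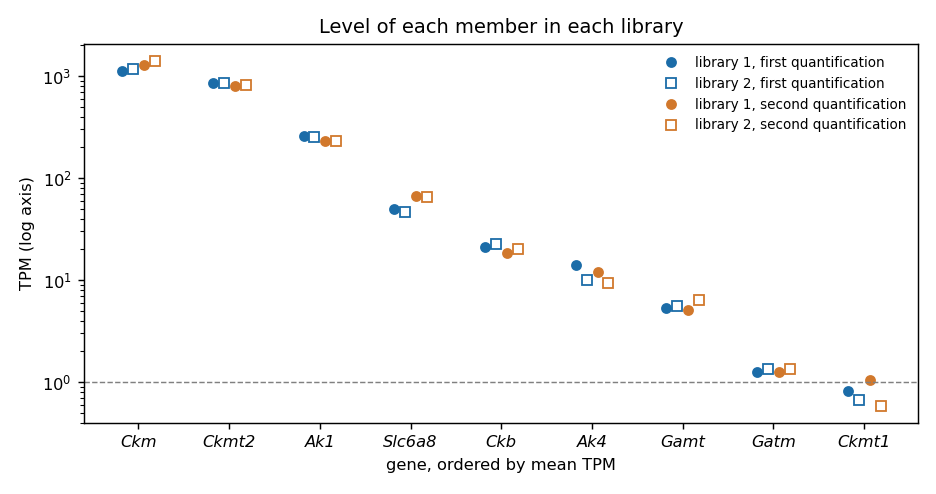
TPM of each member on a log axis, with circles for library 1 and squares for library 2, blue for the first quantification and orange for the second. The dashed line marks 1 TPM, and all values lie above it except those of Ckmt1, of which only library 1 in the second quantification does, at 1.04 TPM.

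**Figure D2:**
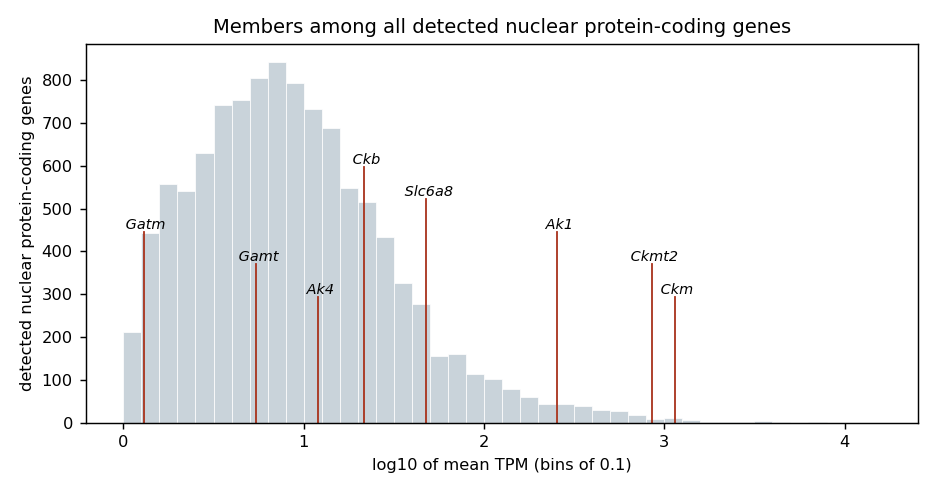
Number of nuclear protein-coding genes, among the 10754 detected in both libraries, by log10 of their mean TPM. Red lines mark the 8 detected members, with line heights varied only to separate the names. Ckm and Ckmt2 lie in the right tail and Gatm at the left edge, against a median of 7.62 TPM over all the genes drawn.

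The muscle-type creatine kinases held almost all of the creatine kinase transcripts. Ckm, the cytosolic muscle form that binds to the M-band and to the calcium pump of the sarcoplasmic reticulum, was at 1118 TPM in library 1 and 1170.5 in library 2 (chromosome 7, 19404776 to 19422841, plus strand, mm10). Ckmt2, the mitochondrial form of striated muscle, was at 854.7 and 865.5 TPM (chromosome 13, 91853387 to 91876885, minus strand). It sits in the space between the mitochondrial membranes, where ATP leaves the matrix. Ckb, the cytosolic form of brain and many other tissues, was at 20.95 and 22.4 TPM (chromosome 12, 111669361 to 111672338, minus strand). Ckmt1, the mitochondrial form of tissues other than striated muscle, was at 0.810 and 0.670 TPM (chromosome 2, 121357714 to 121363737, plus strand). Both libraries thus placed these genes in the same order. Of the summed TPM of the 4 creatine kinases, Ckm and Ckmt2 held 98.9% ± 0.0218 and Ckb and Ckmt1 held 1.11% ± 0.0218.

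The ratio of Ckm to Ckb was 53.4 in library 1 and 52.2 in library 2, a mean of 52.8 ± 0.833. In the second quantification it was 70.0 ± 0.270, and with protein-coding transcripts alone it was 31.7 and 36.4 in the first and second quantification. Ckm was the higher in all 4 versions, while the size of the ratio moved by more than the spread between the libraries. The ratio of Ckmt2 to Ckmt1 was 1055 and 1292. It rests on only 17 and 28 expected counts for Ckmt1.

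All 4 creatine kinases carry the stretch around the reactive cysteine of the active site, and it is shown because it tells how far the genes can be told apart by sequence. The stretches are 60 bases of coding exon on the strand of the gene, from the GENCODE M21 transcripts, with the codon of the cysteine in capitals. For Ckm it lies at chr7:19420158-19420217 in exon 7 of Ckm-203, for Ckmt2 at chr13:91858235-91858294 in exon 8, for Ckb at chr12:111669904-111669963 in exon 7, and for Ckmt1 at chr2:121362726-121362785 in exon 8 of Ckmt1-202.
Ckm: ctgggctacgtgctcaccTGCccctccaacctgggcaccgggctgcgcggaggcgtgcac
Ckb: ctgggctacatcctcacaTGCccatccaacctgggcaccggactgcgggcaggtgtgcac
Ckmt2: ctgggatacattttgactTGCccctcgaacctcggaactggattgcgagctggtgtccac
Ckmt1: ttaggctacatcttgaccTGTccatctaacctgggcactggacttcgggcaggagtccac
Against Ckm, this stretch differs at 8 bases in Ckb, 17 in Ckmt2 and 16 in Ckmt1. Over the whole coding sequence the cytosolic forms Ckm and Ckb were identical at 75.9% of 1143 aligned bases, with no shared run longer than 20 bases. The mitochondrial forms Ckmt1 and Ckmt2 were identical at 71.6% of 1253 aligned bases, with a longest shared run of 39. Between the cytosolic and mitochondrial forms identity ran from 62.5% to 65.9%. No stretch of 50 bases of the Ckm, Ckmt1 or Ckmt2 transcripts examined (Ckm-203, Ckmt1-202 and Ckmt2-201) occurred in a transcript of another gene. Ckb-201 shared 21.9% of its 50-base stretches with processed pseudogenes, nearly all with Gm12892, which was at 0.320 ± 0.0424 TPM. Antisense genes overlap Ckm and Ckmt2, and both had 0 expected counts in both libraries of the first quantification. The second gave the one at Ckm, A930016O22Rik, 0.037 and 0.0662 TPM. The kit was directional, but whether counting used strand is not given in the sources used here.

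Whether Ckm or Ckmt2 was the more abundant depended on the Ckm transcripts counted. Summed over all transcripts, the ratio of Ckm to Ckmt2 was 1.31 in library 1 and 1.35 in library 2, a mean of 1.33 ± 0.0314, and 1.66 ± 0.0642 in the second quantification. Ckmt2 has a single annotated transcript, Ckmt2-201. Ckm has 3 annotated transcripts. Ckm-201, of 1235 bases, was at 622.6 and 650.9 TPM and led in both libraries and both quantifications. Ckm-202, of 671 bases and not annotated as protein coding, was at 450.1 and 477.0 TPM, which is 40.5% ± 0.347 of the gene. The second quantification gave Ckm-202 49.1% ± 0.989. Ckm-203, of 2742 bases, was at 45.2 and 42.5 TPM in the first quantification and at 2.72 and 2.42 in the second. With Ckm-202 left out, Ckm was at 667.8 and 693.5 TPM and its ratio to Ckmt2 was 0.791 ± 0.0141, or 0.845 ± 0.0163 in the second quantification.

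The annotated structures differ in an exon that carries the start of the coding sequence. Exon 2 of Ckm-203 (19414119 to 19414330, 212 bases, of which 193 are coding) is also exon 3 of Ckm-202, and Ckm-201 lacks it. The coding sequence is 381 codons in Ckm-203 and 312 in Ckm-201. Ckm-203 in turn ends in an exon of 1634 bases, where that of Ckm-201 has 377. Of the 3 entries, 0 join exon 2 of Ckm-203 to the short last exon of Ckm-201. The RefSeq gene on the same assembly runs from 19411094 to 19421583 and so ends within 1 base of Ckm-201. Ckm-202 starts upstream of both coding entries with 171 bases of its own, and 500 of its 671 bases lie in exons of Ckm-203. The exon junctions are shown because those that are not shared help to tell these entries apart, beside the exons in which the entries differ. Each is 30 bases of transcript on the plus strand, with the end of the upstream exon in lower case and the start of the downstream exon in capitals.
Ckm-201, exon 1 to exon 2: gagccagccagccagGTCACCCCTTCATCA
Ckm-202, exon 3 to exon 4, and Ckm-203, exon 2 to exon 3: gggtggacaacccagGTCACCCCTTCATCA
Ckm-202, exon 2 to exon 3: ccctctgtttcccagGGTCCCAAAGGCCGC
Ckm-203, exon 1 to exon 2: gagccagccagccagGGTCCCAAAGGCCGC
A read over the second of these junctions matches Ckm-202 and Ckm-203 equally. Only the third is particular to Ckm-202 and only the fourth to Ckm-203. Reads over single junctions were not analysed here, so the part of the Ckm-202 value that came from exons shared with Ckm-203 was not tested.

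Without division by length, Ckm had fewer expected counts than Ckmt2, with 35910 and 35049 against 39277 and 37420, a ratio of 0.925 ± 0.0158. When all Ckm counts were divided by the 1447 bases of Ckm-201 plus exon 2 of Ckm-203, and those of Ckmt2 by its 1486 bases, the ratio was 0.95 ± 0.0162. Divided by the 2742 bases of Ckm-203 it was 0.502 ± 0.00857. These last measures were chosen after seeing the data. Ckm was above Ckmt2 over all transcripts in both quantifications. It was below Ckmt2 over coding transcripts in both, and in the measures chosen afterwards. The 7 versions reuse the same libraries, so how many fall on each side does not settle the order. The versions spanned means from 0.502 to 1.66, a wider range than the libraries showed within any one of them, although some versions lay closer to each other than that. By the first quantification, 23.7% of detected nuclear protein-coding genes had at least 25% of their TPM in transcripts not annotated as protein coding. By its mean there, Ckm was the only such gene of the 8 detected members, with Gatm near that limit at 24.0% ± 23.6. In the second quantification Slc6a8 passed 25% as well, at 25.9% ± 6.69, and the share over all genes was not computed.

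**Figure D3:**
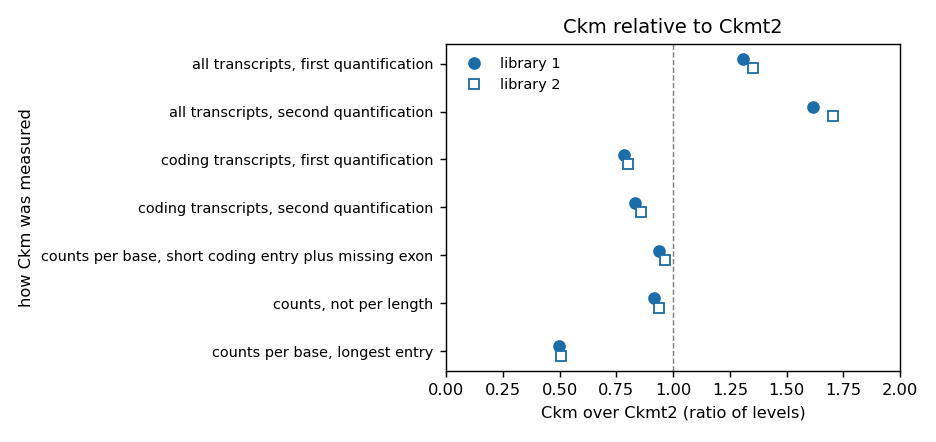
Ratio of Ckm to Ckmt2 in library 1 (filled circles) and library 2 (open squares) for 7 ways of measuring Ckm, on a linear axis from 0. The short coding entry is Ckm-201 and the longest entry is Ckm-203. The dashed line marks equal levels, and the libraries lie on the same side of it in each version, at 1.31 and 1.35 for all transcripts of the first quantification and at 0.781 and 0.801 for its coding transcripts.

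Transcripts for creatine uptake exceeded those for its synthesis. Slc6a8, the sodium- and chloride-dependent creatine transporter, was at 49.8 and 46.1 TPM (chromosome X, 73673150 to 73682502, plus strand). Gamt, which adds the methyl group in the last step of creatine synthesis, was at 5.33 and 5.56 TPM (chromosome 10, 80258151 to 80261012, minus strand). Gatm, which makes the precursor guanidinoacetate in the first step, was at 1.24 and 1.35 TPM (chromosome 2, 122594467 to 122611303, minus strand). Slc6a8 was higher than Gamt 8.82-fold ± 0.748 and higher than Gatm 37.2-fold ± 4.27. Gamt was higher than Gatm 4.21-fold ± 0.127. The second quantification kept this order, with Slc6a8 at 66.2 ± 1.67, Gamt at 5.71 ± 0.858 and Gatm at 1.29 ± 0.0666 TPM. Its Slc6a8 value was 1.38 times the first, a larger move than the median of 1.07-fold over detected genes.

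The lowest members show how few counts their values rest on. Gatm had 89 expected counts in library 1 and 64 in library 2, but its TPM was slightly higher in library 2. There the short Gatm-203, of 510 bases, was given 7.01 counts and 40.7% of the TPM of the gene, against 0 in library 1. Ckmt1 likewise had fewer counts in library 1, 17 against 28, but a higher TPM. In library 1 a retained-intron entry of 422 bases, Ckmt1-210, held 58.5% of its TPM with 5.09 counts and Ckmt1-209 held 23.2%. In library 2 the coding Ckmt1-202 held 92.5%. The second quantification also gave Ckmt1-210 the lead in library 1 and Ckmt1-202 in library 2, with 15.1% on Ckmt1-204 in library 1. TPM divides by length, so a few counts on a short entry weigh heavily. The difference between the libraries in these genes has opposite signs in counts and in TPM and was not resolved.

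Of the adenylate kinases described here, Ak1 had the highest level. Ak1, the cytosolic form of muscle and brain, was at 257.5 and 250.5 TPM (chromosome 2, 32621758 to 32635058, plus strand). Ak4, a form of the mitochondrial matrix, was at 13.9 and 9.98 TPM (chromosome 4, 101419277 to 101466995, plus strand). The ratio of Ak1 to Ak4 was 18.5 and 25.1, a mean of 21.8 ± 4.69, and 21.97 ± 3.90 in the second quantification. Ak1 differed little between the libraries and Ak4 was lower in library 2. Ak3, a matrix enzyme that uses GTP, was higher than Ak4 at 32.0 ± 0.332 TPM. The nuclear Ak6 was at 20.4 ± 2.93. Ak6 is uncertain, since the second quantification gave it 7.37 ± 0.227 TPM. Ak5, Ak7, Ak8 and Ak9 were below 1 TPM, with at most 5 expected counts in a library.

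The ATP-binding loop, rich in glycine, is shown for both adenylate kinase members because it is the part of the enzyme they share by function, with the loop in capitals. In Ak1-202 the 57 bases span an intron of the gene, between 32629869 and 32630275 on chromosome 2, and in Ak4-201 they lie in exon 2 at chr4:101419839-101419895.
Ak1: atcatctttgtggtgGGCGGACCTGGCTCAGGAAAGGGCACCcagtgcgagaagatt
Ak4: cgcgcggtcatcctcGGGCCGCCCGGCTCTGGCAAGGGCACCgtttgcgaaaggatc
These stretches differ at 24 of 57 bases. Over 560 aligned coding bases Ak1 and Ak4 were identical at 57.5%, with no shared run longer than 9 bases. Ak1-202 shared no 50-base stretch with another gene. Ak4-201 shared 11.8% of its stretches with the processed pseudogene Ak3l2-ps, which was at 3.41 ± 0.0566 TPM, so part of the Ak4 reads cannot be assigned by sequence.

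The leading transcript was less certain than the level of these genes. Among the 7 detected members with several transcripts, 4 (Ckm, Ckb, Gamt and Gatm) had the same leading transcript in both libraries and both quantifications, against 70.8% of all such genes. For Ak1 the first quantification gave Ak1-202 87.3% of the TPM in library 1 and 86.8% in library 2. The second gave it 73.9% and 8.21%, and placed Ak1-203 first in library 2 with 87.9%. These transcripts have the same coding sequence, share 1961 bases and differ in the first exon. The junctions of their first and second exons are shown in the same format as those of Ckm, because the bases upstream of them are what separates the entries.
Ak1-202: cacaccctcccccagAGTGCTGACCTAGCT
Ak1-203: tctgctcacccacagAGTGCTGACCTAGCT
The level of the gene did not move with this split: in the second quantification Ak1 was at 230.1 and 231.2 TPM. Ak4 was led by Ak4-201 in library 1 and Ak4-202 in library 2 in the first quantification, and the reverse in the second. Ak4-201, Ak4-202 and Ak4-203 have the same coding sequence, and Ak4-203 held 27.3% ± 2.72 in the first quantification. The 462-base Ak4-204 held 13.4% ± 3.07 there and 0 in the second. For Slc6a8 the first quantification was led by Slc6a8-201 at 48.3% ± 2.02, and the second by the 537-base Slc6a8-213 at 30.2% ± 1.30, which the first gave 3.37% ± 0.228. Slc6a8-203 held 37.2% ± 4.77 in the first and 6.06% ± 4.54 in the second. Slc6a8-202, an entry annotated for nonsense-mediated decay, held 12.8% in library 1 and 0 in library 2 of the first quantification, and 27.9% and 14.9% in the second. Slc6a8-204 held 13.2% ± 0.0717 in the second only. The smaller synthesis gene Gamt was led by Gamt-202, at 95.9% ± 5.84. Ckb-201 held 98.7% and 99.4% of the Ckb TPM in the first quantification, the rest being retained-intron entries.

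**Figure D4:**
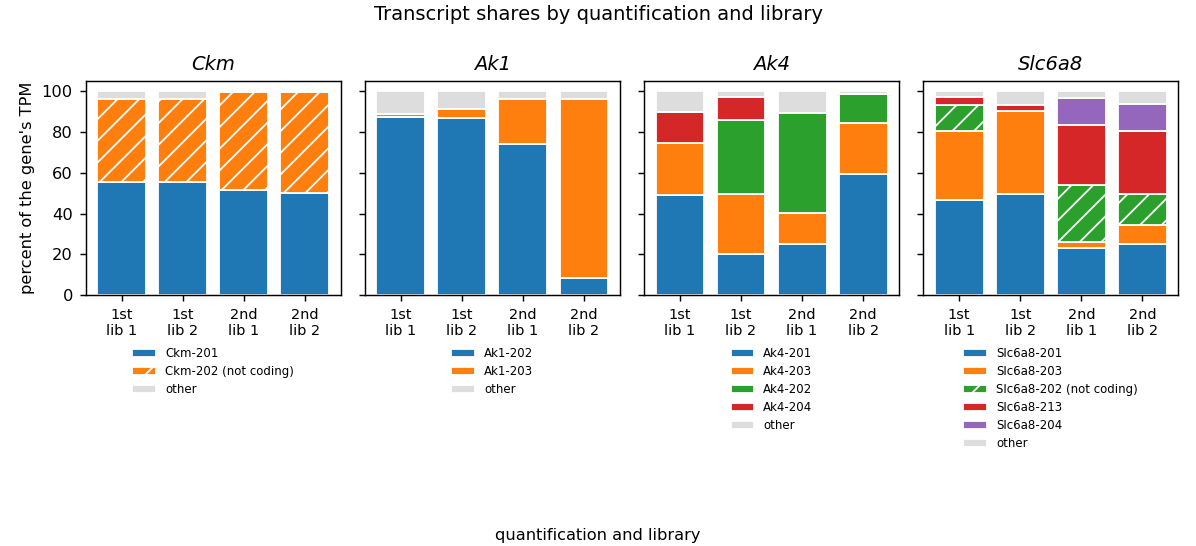
Percent of the TPM of Ckm, Ak1, Ak4 and Slc6a8 held by each transcript with at least 10% in some table, for libraries 1 and 2 in the first (1st) and second (2nd) quantification. Hatched parts are entries not annotated as protein coding and grey is the sum of the others. Ckm-201 leads Ckm in all tables, while Ak1-202 falls to 8.21% in library 2 of the second quantification.

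Between the libraries the members differed little. Over the 8 members with at least 10 counts in a library and a mean of at least 1 TPM, the median size of the log2 ratio of TPM, with 1 added, was 0.07, against 0.10 over 11940 genes. Their median signed log2 ratio was 0.03, against -0.01. The 11940 genes were not matched to the members by level, so these medians do not set the members apart. No member passed a 2-fold ratio, and 0.603% of all genes did. The ratio of expected counts, library 2 over library 1 after scaling by library total, had a 95% exact interval that left out 1 for 4 of the 8 members, against 23.3% of all genes. It was above 1 for Ckm and Ckmt2 (background 12.8%) and below 1 for Slc6a8 and Ak4 (background 10.4%). The interval covers counting error only, so it is narrow for abundant genes, and it compares these libraries and not conditions.

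The largest of these differences was that of Ak4, with a count ratio of 0.820 (0.758 to 0.887). Slc6a8 had a ratio of 0.939 (0.903 to 0.977), Ckm 1.05 (1.03 to 1.06) and Ckmt2 1.02 (1.01 to 1.04). With DESeq2 size factors the Ckmt2 interval ran from 0.997 to 1.03 and no longer left out 1. For Ak1 the ratio was 1.00 with an interval of 0.978 to 1.02, and for Ckb it was 1.08 (0.989 to 1.18). The intervals of Gamt (0.886 to 1.41), Gatm (0.551 to 1.08) and Ckmt1 (0.935 to 3.45) were wider and included 1. The count ratio and the TPM ratio had the same sign for Ckm, Ckmt2, Ckb, Slc6a8, Ak4 and Gamt.

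Markers of other cells differed between the libraries as well. By the same kind of interval, 12.8% of all genes tested were higher in library 2 and 10.4% lower. Those genes had at least 10 counts in a library and a mean of at least 1 TPM. Some skeletal muscle and Schwann cell markers did not. The marker lists were chosen with earlier results of these data known. The number of their markers that moved therefore cannot serve as an independent test. All 6 adipocyte markers were higher in library 2 by their intervals, with summed levels of 10.6 TPM in library 1 and 39.4 TPM in library 2. The lipid droplet genes Plin1 and Cidec went from 1.79 to 8.21 and from 1.30 to 5.69 TPM, the brown fat uncoupler Ucp1 from 0.900 to 8.74 and Cfd from 4.04 to 10.6. All 4 atrial markers were higher there too, with sums of 1163 and 1551 TPM. The natriuretic peptide gene Nppa was at 617.3 and 842.4, and the myosin light chains Myl4 and Myl7 at 263.1 and 354.6 and at 250.6 and 313.3. All 5 endothelial markers were lower, with sums of 163.9 and 150.5 TPM, among them the junction protein gene Cdh5 at 38.3 and 35.0. Of the fibroblast markers 2 of 5 were lower, with sums of 191.8 and 180.0, and of the smooth muscle markers 1 of 5, with 117.3 and 111.8. Of the macrophage markers 2 of 5 were higher, with 35.9 and 37.9. Among skeletal muscle markers 1 of 8, Myh4, was higher. The Schwann cell marker S100b was higher as well, with 26 and 60 expected counts and a ratio of 2.48 (1.54 to 4.09), while the interval of Sox10 included 1. Of the 6 cardiomyocyte markers 3 were higher and 2 lower. In tissue RNA, fewer cells of a type and less RNA per cell cannot be told apart, and the part of these cells in the ratios of the members was not tested.

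**Figure D5:**
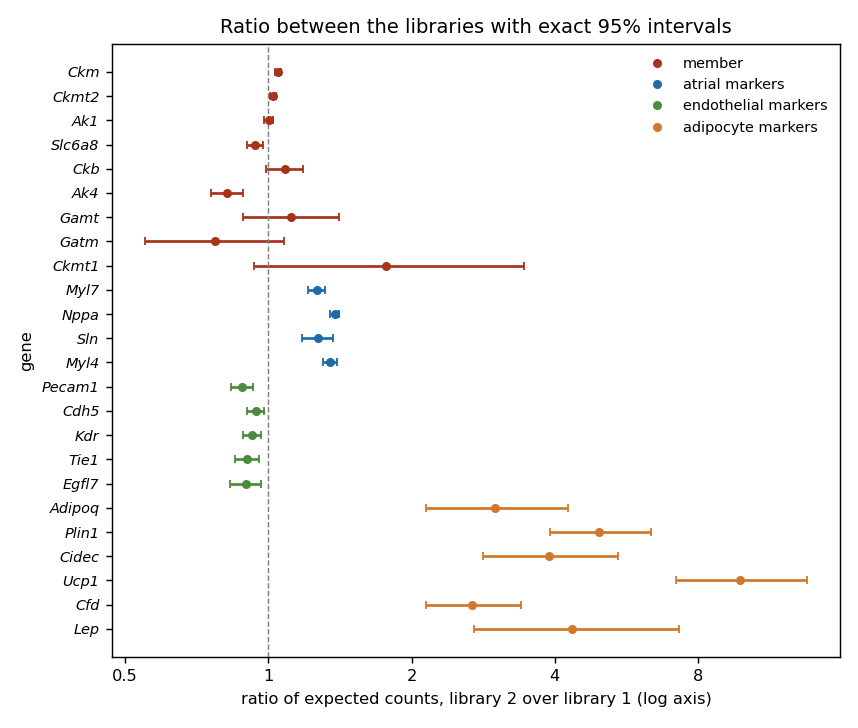
Ratio of expected counts in library 2 over library 1, scaled by library total, on a log axis, with exact 95% intervals that cover counting error only. Members are in red, atrial markers in blue, endothelial markers in green and adipocyte markers in orange. The other marker lists, in which not every marker moved by its interval, are not drawn. The abundant members lie close to 1, Ak4 at 0.820, and the adipocyte markers lie to the right, up to 9.78 for Ucp1.

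Other genes that handle adenine nucleotides were expressed around the members. The ADP/ATP carrier of heart and muscle, Slc25a4, which passes ATP out of the matrix, was at 1461 ± 10.2 TPM, 1.70-fold ± 0.0269 the level of Ckmt2. The outer membrane channels Vdac1, Vdac2 and Vdac3 were at 371.1 ± 1.68, 157.6 ± 1.07 and 136.2 ± 1.54 TPM. In this list 5 of 6 genes reached 1 TPM in both libraries, against 48.8% of nuclear protein-coding genes. The exception was the carrier Slc25a31 of the germ line, at 0.105 ± 0.0212. All 7 nucleoside diphosphate kinases listed here, which pass phosphate from ATP to other nucleotides, reached 1 TPM in both libraries. Nme2 led them at 335.0 ± 0.877 TPM, followed by Nme3 at 11.3 ± 2.57, Nme6 at 5.36 and 6.64 in the libraries and Nme1 at 3.44 ± 1.12.

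The listed genes of AMP metabolism and of the sensor AMPK ranged widely in level. Adenosine kinase, Adk, which makes AMP, was at 81.4 ± 10.4 TPM, and the AMP nucleotidases Nt5c1a and Nt5e were at 24.1 ± 0.170 and 2.46 ± 0.191. Among the AMP deaminases, Ampd3 was at 10.2 ± 1.99 and the skeletal muscle form Ampd1 at 0.175 ± 0.0212. In the AMP metabolism list 5 of 6 genes reached 1 TPM in both libraries, as did 48.8% of nuclear protein-coding genes. Among the subunits of AMPK, 6 of 7 did so, led by the regulatory Prkag1 at 31.9 ± 1.54 and the catalytic Prkaa2 at 26.4 ± 1.61, with the regulatory Prkab1 at 14.97 and 15.1 and Prkag2 at 13.2 ± 1.07. Prkag3 was at 1.30 and 0.850 TPM. By the interval of the count ratio, the adenylate kinase Ak6 was higher in library 2, although its TPM in the second quantification was the lower there, at 7.54 in library 1 and 7.21 in library 2. By the same interval 3 of the 7 listed nucleoside diphosphate kinases were higher and 0 lower, against 12.8% and 10.4% of all genes tested. Of the 6 exchange genes 1 was higher and 0 lower. Among the 7 AMPK subunits 1 was higher and 1 lower. None of the 6 genes of AMP metabolism was on either side. The exchange and AMP metabolism lists include Slc25a31 and Ampd1, which lie below the mean of 1 TPM required of the genes tested. These lists too were chosen with earlier results of these data known.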

How the data were processed

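Each library was built from 300 ng of total RNA with ERCC spike-ins and a strand-preserving kit, per the labels' protocols. The authors used mm10 and annotation M21, per the deposited readme; for aligner, tools and versions the sources used here state nothing. Per the file headers, the deposited tables hold expected counts, with shared reads split by an estimator, TPM, FPKM (used only as an alternative) and the percent of a gene held by each transcript. The deposited interval bounds and percents were not used. For the second quantification the deposited transcript values are estimated counts and TPM, which were summed per gene. Gene tables were joined to GENCODE M21 by gene ID. Spike-ins and numbered entries were left out.

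The labels give 1 group, so conditions could not be tested and p-values are not given. Means and SDs are over 2 libraries. Expected counts were rounded for exact (Clopper-Pearson) 95% intervals, which cover counting error only, tested on simulated counts. Scaling alternatives came from edgeR 4.0.16 and DESeq2 1.42.0, run in R 4.3.3. Everything else ran in Python 3.11.15 with pandas 2.3.3, numpy 2.4.6, Biopython 1.88, matplotlib 3.10.9 and scipy 1.17.1. Reads of a CAST cross were placed on mm10, and the effect was not tested. The alternatives were a minimum level, pseudocount, scaling, quantification, coding transcripts and leaving out a library. The members and lists were chosen with earlier results of these data known. Named by rule were all members, their leading transcripts and those with at least 10% of the gene, and the 4 leading genes and those below 1 TPM of each other list. Against that rule, marker lists that moved little are given as sums. Pseudogenes, antisense genes and Cdh5 were named after their values were seen. Some genes of these lists are not reported here.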

Additional observations from a re-analysis of the deposited data

How the results depend on the processing

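The ratio of Ckm to Ckb was 52.8, and 70.0 in the second quantification, 31.7 with protein-coding transcripts only and 36.4 with these in the second quantification. The ratio of Ckm to Ckmt2 was 1.33, and 1.66 in the second quantification. It went below 1 with protein-coding transcripts only, at 0.791 and, in the second quantification, 0.845. It was also below 1 in measures added after seeing the data, at 0.95 over the length of Ckm-201 plus exon 2 of Ckm-203, 0.925 for counts and 0.502 over Ckm-203. These versions differ by construction in whether Ckm-202 counts and in the length given to Ckm. With either library left out, the ratios ranged from 52.2 to 53.4 for Ckm to Ckb, 1.31 to 1.35 for Ckm to Ckmt2 and 18.5 to 25.1 for Ak1 to Ak4. FPKM moved none of these ratios by more than the SD between the libraries. The count of detected members was 9 at a minimum of 0.1 TPM and 7 at 5 TPM, against 8 at 1 TPM. The share of nuclear protein-coding genes was computed only at 1 TPM, where it was 48.8%, so the other counts have no background. The count of members whose interval left out 1 was 3 with DESeq2 size factors and 4 otherwise. Under every pseudocount, filter and quantification tried, 0 members passed 2-fold. The shares of all genes, 23.3% and 0.603%, were computed only with library totals, a pseudocount of 1 and the first quantification. The counts under the other settings have no background. The libraries named the same leading transcript for 7 of 9 members by the first quantification and for 6 by the second. Both counts include Ckmt2, whose 1 annotated transcript fixes its answer, and the 9 include Ckmt1, which was not detected. The share of all genes with such agreement within 1 quantification was not computed. No paired analysis was possible because there is only 1 group. Depth limits Ckmt1 and Gatm, and gave them no resolved difference between the libraries.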
